A study of Arabidopsis thaliana with 9 samples.

Results

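Dehydrins and other genes that mark dehydration were followed in seedlings of Arabidopsis thaliana exposed to silver nitrate. The set held 8 genes, chosen by name and identified by locus: the dehydrin genes ERD10 (AT1G20450), ERD14 (AT1G76180), LTI30 (AT3G50970) and RAB18 (AT5G66400), the drought-induced genes RD29B (AT5G52300) and RD22 (AT5G25610), and the enzyme genes NCED3 (AT3G14440) and P5CS1 (AT2G39800). They were 8 of 25665 loci with a probe on the array and 8 of 21042 loci that were tested. Each of the 8 had 1 probe, and each was well above background on all 9 arrays.

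Dehydrins are small, water-loving and largely unfolded proteins that build up in drying, cold or maturing plant tissue and are thought to protect membranes and other proteins. Loss of water raises the hormone abscisic acid, whose signalling switches on genes such as RAB18 and RD29B, while ERD10 and LTI30 are also induced by cold. NCED3 makes the hormone's precursor in drought, and P5CS1 makes proline, a solute that gathers in dehydrated cells.

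All plants were whole seedlings of Col-0, with no mutation or transgene named. They spent 1 week on agar and 2 weeks in shaken liquid medium at 22 °C in continuous light, and were 3 weeks old. Silver nitrate, whose silver ions are toxic and block ethylene perception, was added to the medium at a final 0.1 mM, and seedlings were washed and harvested 0 h, 48 h or 72 h later. Each time had 3 arrays, from separate experiments on different plants, and each sample was hybridised alone in 1 colour (Cy3). The 0 h plants were the sole reference, so silver and the further 48 or 72 hours in culture cannot be told apart. RNA came from whole plants, and fewer cells of a type and less RNA per cell cannot be told apart.

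Levels are log2 of the processed probe signal divided by the 75th percentile of the array, so that 0 means a signal equal to that percentile. Levels were compared for the same probe across arrays, never between genes. A change is a difference of such levels with its standard error from limma, and a gene was called when its p, adjusted over the 21042 loci by the Benjamini-Hochberg method, was under 0.05. The 75th percentile lay between 1583 and 3681 intensity units, and 63.9% to 66.8% of spots were well above background. Replicate 1 of every time was on slide 1 and replicate 2 on slide 2, while replicate 3 of 0 h and 48 h shared slide 3 and replicate 3 of 72 h was on slide 4. Of 5 shoot and 6 root marker genes, the tissue check of these whole seedlings, all 11 were above background at 0 h and at 48 h, and at least 4 of the 6 root markers at 72 h.

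The slide 3 arrays stood apart for 3 of the 8 genes, RD29B, RAB18 and LTI30, so their results are given with and without that slide. For RD29B, replicate 3 minus the mean of replicates 1 and 2 was -4.52 at 0 h and -4.63 at 48 h on the log2 scale, and 0.29 at 72 h. For RAB18 these differences were -1.93, -0.60 and 0.17, and for LTI30 they were -0.97, -0.86 and 0.07. A lower difference was found in 0.746% of loci at 0 h and 5.29% at 48 h for RAB18, and in 5.19% and 2.03% for LTI30. The other 5 genes had differences between -0.62 (P5CS1 at 0 h) and 0.56, so RAB18 and LTI30 are not sharply set off from them. Slide 3, its scan day and the plants of its 2 samples cannot be told apart. Replicate 3 of 72 h, on slide 4 and scanned on another day, had no such drop.

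At 48 h, RAB18 was higher than at 0 h and ERD10 lower by limma, and at 72 h ERD10 and ERD14 were lower. So 1 gene was called higher and 1 lower of 8 at 48 h, where 14.1% of all loci were called higher, 15.8% lower and 29.9% in either direction. At 72 h 0 were higher and 2 lower, against 16.7% and 19.6% of all loci and 36.3% in either direction. Both totals of 2 of 8 are near these backgrounds. The median change of the 8 was 0.50 at 48 h and -0.03 at 72 h, beside 0.01 and 0.00 for all loci.

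**Figure D1:**
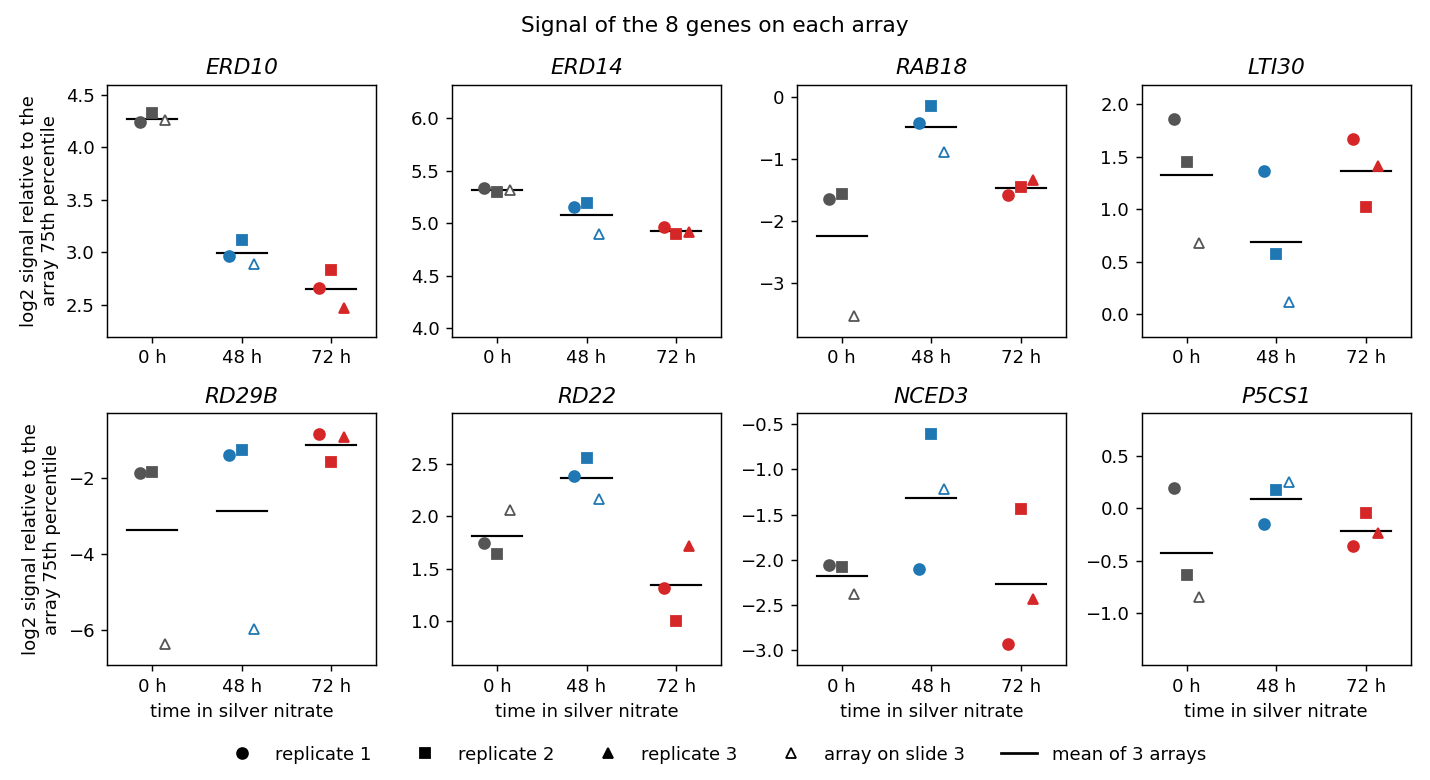
Level of each of the 8 genes on every array (log2 of signal over the array's 75th percentile, vertical axis with its own range per gene) at 0, 48 and 72 h, with open triangles for the arrays of slide 3 and horizontal bars for means of 3 arrays. ERD10 steps down from about 4.27 to 2.65 with little scatter, while the slide 3 arrays of RD29B lie near -6.

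ERD10, an acidic dehydrin of roots and leaves induced early in dehydration and by cold, fell at both times. Its levels were 4.24, 4.32 and 4.26 at 0 h, 2.96, 3.12 and 2.88 at 48 h, and 2.66, 2.83 and 2.47 at 72 h (replicates 1, 2 and 3). The 3 times did not overlap: every 0 h array was above every 48 h array, and every 48 h array above every 72 h array. The change was -1.28 ± 0.13 at 48 h (2.43-fold lower, adjusted p = 0.000283) and -1.62 ± 0.13 at 72 h (3.08-fold lower, adjusted p = 7.93e-05). The step from 48 h to 72 h, -0.34 ± 0.13, was not called by limma (adjusted p = 0.471, unadjusted 0.0314). Within slides the fall at 48 h was -1.28, -1.20 and -1.37, and at 72 h it was -1.59 and -1.49 on the slides that held both times. A larger fall was found in 6.93% of all loci at 48 h and in 6.37% at 72 h.

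ERD14, a close relative of ERD10 that is also acidic, moved in the same direction by a smaller amount. Its levels were 5.34, 5.30 and 5.32 at 0 h, 5.16, 5.19 and 4.90 at 48 h, and 4.96, 4.90 and 4.92 at 72 h. All 48 h and 72 h arrays were below all 0 h arrays, and the 48 h and 72 h arrays overlapped. The change was -0.24 ± 0.12 at 48 h (adjusted p = 0.167) and -0.39 ± 0.12 at 72 h (1.31-fold lower, adjusted p = 0.0297). This call depended on the scaling: with quantile normalization the 72 h change was -0.08 and with the deposited value table -0.16, and it ended in 13 of 22 alternatives (adjusted p = 0.0504 to 0.700). With the quantile scaling the 48 h change had the opposite sign, 0.063.

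RAB18, a dehydrin strongly induced by abscisic acid and abundant in seeds and guard cells, was the member called higher. Its levels were -1.64, -1.55 and -3.53 at 0 h, -0.42, -0.14 and -0.88 at 48 h, and -1.58, -1.45 and -1.34 at 72 h. All 48 h arrays were above all 0 h and all 72 h arrays, and 0 h and 72 h overlapped. The change at 48 h was 1.76 ± 0.48 (3.40-fold higher, 95% interval 0.68 to 2.85, adjusted p = 0.0235), and at 72 h it was 0.79 ± 0.48 (interval -0.30 to 1.87, adjusted p = 0.236).

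The 0 h array of slide 3, the lowest of the 9 for RAB18, carried part of both values. Without it the 48 h change was 1.12 (adjusted p = 0.00804) and the 72 h change 0.14 (adjusted p = 0.663). Without both arrays of slide 3 the 48 h change was 1.32 ± 0.15 (adjusted p = 0.00386) and the 72 h change 0.14 ± 0.14 (adjusted p = 0.473). Within slides 1, 2 and 3 the 48 h difference was 1.23, 1.42 and 2.65, and the 72 h difference was 0.06 and 0.11 on slides 1 and 2. The 48 h call ended without 48 h replicate 1 (adjusted p = 0.0626) or replicate 2 (adjusted p = 0.0779), with values of 1.73 and 1.59.

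RAB18 is also a gene of maturing seeds, so markers of seed maturation are given beside it. Of 17 such markers, 4 were above background on every 0 h array. Of these 4, OLEO4 was higher at 48 h (1.76 ± 0.43, adjusted p = 0.0150) and so was EM6 (0.81 ± 0.23, adjusted p = 0.0288). EM1 had a value of 0.01 ± 0.30 at 48 h. OLEO3 had a value of -0.96 ± 0.32 at 48 h (adjusted p = 0.0535) and fell at 72 h (-1.35 ± 0.32, adjusted p = 0.0116), a call that ended without slide 3 (adjusted p = 0.0616).

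The other 3 of the 7 seed markers tested, the albumin genes SESA1, SESA2 and SESA5, passed the filter through the later times alone, so the total of 5 higher and 0 lower at 48 h (2 higher and 1 lower at 72 h) is not read as a result. In the main processing SESA5, above background on no 0 h array, was at least 87.9-fold higher at 48 h, and SESA1 was at least 3.98-fold higher. SESA2, above background on 1 of 3 arrays at 0 h, had a change of 6.09 ± 0.95. These sizes depended on the processing. The lowest 48 h change (log2) over 21 alternatives was 3.83 for SESA5, 0.28 for SESA1 and 2.97 for SESA2. The SESA1 call at 48 h ended in 3 of the 21 (limma adjusted p = 0.0553 to 0.665), normexp background correction among them. The summed signal of the 17 was 0.136 to 0.191 of the array's 75th percentile at 0 h, 0.650 to 1.73 at 48 h and 0.132 to 0.460 at 72 h. SESA2 and SESA5 made up 68.9% to 87.9% of the 48 h sum, and the other 15 summed to 0.133 to 0.180, 0.202 to 0.240 and 0.0909 to 0.140 at the 3 times. The defining cruciferin genes CRA1, CRB and CRU3 and the oleosin genes OLEO1 and OLEO2 were above background on no array. The part of seed material in the RAB18 result was not tested.

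LTI30, a basic dehydrin rich in lysine and histidine that is induced by cold and drought, was not called at either time. Its levels were 1.86, 1.45 and 0.68 at 0 h, 1.37, 0.58 and 0.11 at 48 h, and 1.67, 1.01 and 1.41 at 72 h. The 3 times overlapped, but on each of slides 1, 2 and 3 the 48 h array was below the 0 h array, with differences of -0.49, -0.87 and -0.57. The change was -0.64 ± 0.38 at 48 h (interval -1.51 to 0.23, adjusted p = 0.246) and 0.04 ± 0.38 at 72 h (adjusted p = 0.952). With the slide as a block, the 48 h value of -0.64 had a standard error of 0.12 and was called (adjusted p = 0.0147). The 72 h value then turned to -0.29 (adjusted p = 0.182). Without slide 3 the 48 h value was -0.68 ± 0.33 (adjusted p = 0.206) and the 72 h value -0.29 ± 0.30 (adjusted p = 0.518).

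RD29B, which encodes a hydrophilic protein and whose promoter is a standard reporter of abscisic acid response, had a far lower signal on slide 3. Its levels were -1.86, -1.84 and -6.37 at 0 h, -1.39, -1.26 and -5.95 at 48 h, and -0.85, -1.57 and -0.92 at 72 h. On slide 3 the processed signals were 19.2 and 31.7 intensity units, whereas the other 7 arrays lay between 773 and 1949. The slide 3 signals were flagged well above background but were near the lowest so flagged. The lowest such level of any probe was -7.00 on the 0 h array of slide 3 and -7.10 on its 48 h array. The fitted change was 0.49 ± 1.49 at 48 h (interval -2.91 to 3.88, adjusted p = 0.846) and 2.24 ± 1.49 at 72 h (interval -1.15 to 5.64, adjusted p = 0.277), so neither was distinguishable from 0.

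Compared within a slide, the spread of RD29B was far smaller. The 48 h array was above the 0 h array on all 3 slides, by 0.47, 0.58 and 0.41, and the 72 h array was above it on slides 1 and 2, by 1.01 and 0.26. The slide 3 difference of 0.41 lies between signals near the lowest above background, and fits with a block that keep slide 3 include it. Blocking on slide gave RD29B a change of 0.49 ± 0.19 at 48 h (adjusted p = 0.115) and 0.62 ± 0.23 at 72 h (adjusted p = 0.101). With replicate as a block and no other time in the fit, an alternative chosen after seeing the data, the 48 h value of 0.49 ± 0.11 passed (adjusted p = 0.0394). Without slide 3 the changes of RD29B were 0.52 (adjusted p = 0.204) and 0.74 ± 0.23 (adjusted p = 0.0553).

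**Figure D2:**
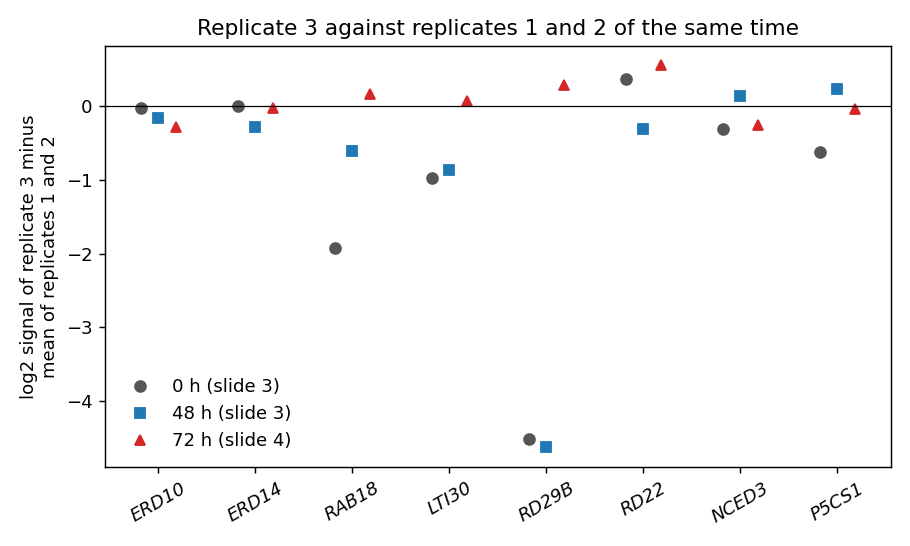
Replicate 3 minus the mean of replicates 1 and 2 (log2, one axis) for each of the 8 genes at 0 h and 48 h, where replicate 3 was on slide 3, and at 72 h, where it was on slide 4. RD29B stands at -4.52 and -4.63 on slide 3 and at 0.29 on slide 4.

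Such a drop was rare among loci. Of 21042 loci, 2 were at least 8-fold lower in replicate 3 than in the mean of replicates 1 and 2 at both 0 h and 48 h, RD29B and AT5G07850, the latter named after its values were seen (-4.39 and -4.99, and 0.12 at 72 h). A lower replicate 3 difference than that of RD29B was found in 0.0143% of loci at 0 h and 0.00475% at 48 h. RD29A, the adjacent relative of RD29B with 0 genes between them in the reference table, had differences of -0.40, -1.09 and 0.18. The cause was not tested.

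RD22, a gene with a BURP domain that responds to abscisic acid through MYC2 and MYB2, was above its 0 h level at 48 h and below it at 72 h. Its levels were 1.74, 1.64 and 2.06 at 0 h, 2.39, 2.56 and 2.16 at 48 h, and 1.32, 1.00 and 1.72 at 72 h. All 48 h arrays were above all arrays of the other times, and 0 h and 72 h overlapped. The values against 0 h were 0.55 ± 0.21 at 48 h (adjusted p = 0.0785) and -0.47 ± 0.21 at 72 h (adjusted p = 0.117), neither called.

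Between 48 h and 72 h the change of RD22 was -1.02 ± 0.21 (2.03-fold, adjusted p = 0.170 by limma, unadjusted 0.000991), and by the F test over the 3 times RD22 changed (adjusted p = 0.0148). The F test called 2 of the 8 genes, ERD10 (adjusted p = 0.000148) and RD22, against 32.8% of all loci, and RAB18 lay just outside (adjusted p = 0.0505). The 48 h value of RD22 was 0.65, 0.91 and 0.10 within slides 1, 2 and 3. It was called without slides 3 and 4 (0.78 ± 0.17, adjusted p = 0.0416), with quantile normalization and with the deposited value table. The 72 h value was called without 72 h replicate 3 (-0.65, adjusted p = 0.0473).

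NCED3, whose dioxygenase cleaves carotenoids in the rate-limiting step of abscisic acid synthesis in drought, was not called. Its levels were -2.06, -2.08 and -2.38 at 0 h, -2.10, -0.61 and -1.22 at 48 h, and -2.94, -1.43 and -2.43 at 72 h. The 0 h arrays were close together and the treated arrays were not, with replicate 1 lowest and replicate 2 highest at both later times. The change was 0.86 ± 0.44 at 48 h (adjusted p = 0.180) and -0.09 ± 0.44 at 72 h (adjusted p = 0.889). Within slides the 48 h difference was -0.04, 1.47 and 1.16, and the 72 h difference was -0.88 and 0.65.

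P5CS1, the rate-limiting enzyme of proline synthesis from glutamate, was not called either. Its levels were 0.20, -0.63 and -0.84 at 0 h, -0.15, 0.17 and 0.25 at 48 h, and -0.36, -0.05 and -0.23 at 72 h. The 0 h array of replicate 1 was the second highest of the 9, the other 0 h arrays were the lowest, and all 3 times overlapped. The change was 0.52 ± 0.26 at 48 h (interval -0.08 to 1.11, adjusted p = 0.175) and 0.21 ± 0.26 at 72 h (adjusted p = 0.562). Without 0 h replicate 1 P5CS1 was called at both times, at 0.83 (adjusted p = 0.00874) and 0.52 (adjusted p = 0.0437).

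**Figure D3:**
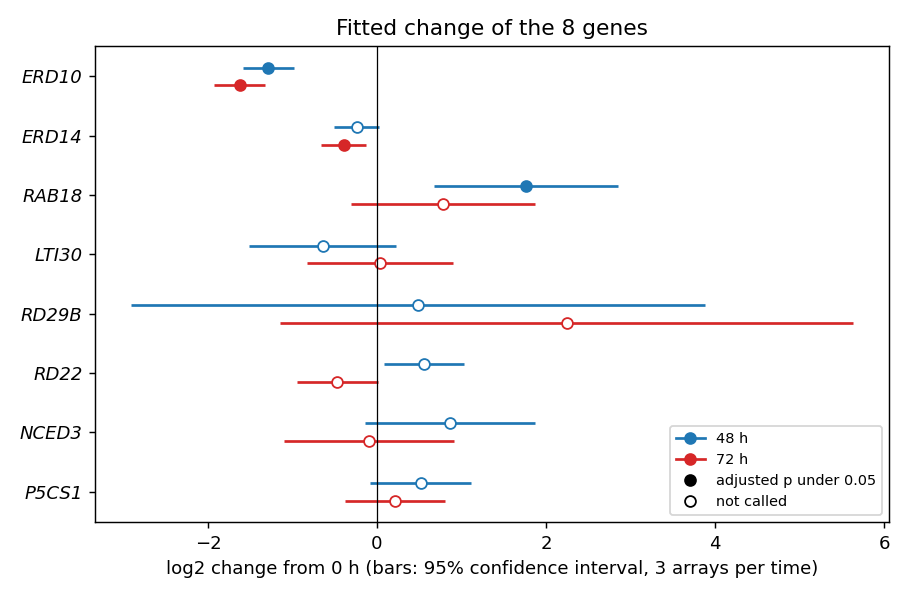
Change of each gene from 0 h (log2, horizontal axis) at 48 h and 72 h, with bars for 95% intervals from limma and filled points for called changes. ERD10 lies at -1.28 and -1.62 with narrow bars, and the bars of RD29B reach from -2.91 to 3.88 at 48 h.

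Taking the 8 genes by the order of their arrays, the 3 arrays of 48 h lay wholly above or below those of 0 h for 4 genes (ERD10, ERD14, RAB18 and RD22), and 43.1% of all loci did so. For 72 h against 0 h this held for 3 genes (ERD10, ERD14 and RD29B), against 49.8% of loci. Between 48 h and 72 h it held for ERD10, RAB18 and RD22, which were lower at 72 h, against 17.5% of loci.

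In the comparison of 72 h with 48 h, limma called 0 of the 8 genes, and 2 of them, ERD10 and RD22, had an unadjusted p under 0.05. Over all loci 0% were called, and 1941 of 21042 had an unadjusted p under 0.05. Of the 8 genes, 6 had a lower mean at 72 h than at 48 h, and LTI30 and RD29B a higher one. Their median difference was -0.32, beside -0.01 over all loci.

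**Figure D4:**
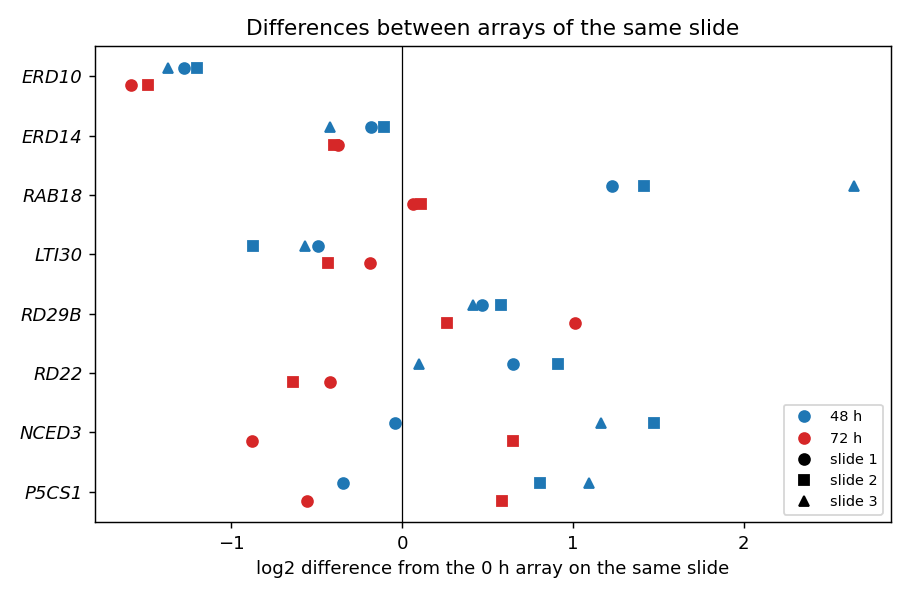
Difference from 0 h on the same slide (log2) for each of the 8 genes, 1 point per slide, at 48 h (slides 1, 2 and 3) and 72 h (slides 1 and 2). ERD10 lies between -1.59 and -1.20 throughout, RD29B between 0.26 and 1.01, and P5CS1 on both sides of 0.

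The 48 h and 72 h comparisons share the 0 h arrays, so their values are only set side by side. On every slide where both arrays were present, ERD10, ERD14 and LTI30 were below their 0 h array at both times, and RAB18 and RD29B above it. The share of all loci that kept 1 sign in this way was not counted, so these signs are descriptions. RD22 was above at 48 h and below at 72 h on every such slide, and NCED3 and P5CS1 differed in sign between slides.

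Profiles over the 9 arrays, each centred on its own mean, were compared by their root mean square difference for ERD10 and RD22, the genes called by the F test. The loci most like ERD10 were THE1 (AT5G54380), a receptor kinase gene of cell wall sensing, and THM1 (AT1G03680), a chloroplast thioredoxin gene, at differences of 0.108 and 0.111, where the median over loci was 0.758. For RD22 they were CRK40 (AT4G04570) and CYP96A1 (AT2G23180), at 0.248 and 0.285, with a median of 0.569. Within the set the closest pair was ERD14 and RD22 (0.440), and every pair with RD29B was at least 1.69 apart. A flat profile would lie 0.472 from RD22, so ERD14 was hardly nearer to RD22 than that. Their 48 h values also had opposite signs (-0.24 for ERD14 and 0.55 for RD22). The 9 arrays include the same slides for every gene, so these are descriptions.

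Other dehydrin genes were compared from a list of 6, of which 5 were tested and AT4G39130 was not. Of the 5, 0 were called higher and 3 lower at each time, with medians of -0.87 at 48 h and -1.08 at 72 h. Over all loci 14.1% were called higher and 15.8% lower at 48 h, and 16.7% and 19.6% at 72 h, with medians of 0.01 and 0.00. The same shares and medians stand beside every list count below, and no list was tested against them. COR47, the cold-induced dehydrin next to ERD10 on the chromosome, was at 3.58, 3.21 and 3.08 at 0 h, 2.64, 2.41 and 2.2 at 48 h and 2.35, 2.12 and 2.15 at 72 h. It fell at both times (-0.87 ± 0.17, adjusted p = 0.00598, and -1.08 ± 0.17, adjusted p = 0.00164), with no overlap with 0 h. The dehydrin gene LEA (AT2G21490) fell as well (-1.21 ± 0.24 and -1.81 ± 0.24).

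AT4G38410, listed with the dehydrins, fell (-1.84 ± 0.44 and -1.64 ± 0.44), in calls that ended without slide 3 although the values did not shrink (-2.03, adjusted p = 0.0668, and -1.72, adjusted p = 0.0612). XERO1, next to LTI30, had values of -0.55 ± 0.45 and -1.04 ± 0.45 and HIRD11 -0.41 ± 0.14 and -0.31 ± 0.14, none called. Probe sequences were not used here, so signal shared between neighbours such as ERD10 and COR47 was not tested.

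Among 19 other genes induced by dehydration or cold, 17 were tested, with 5 higher and 3 lower at 48 h and 4 higher and 3 lower at 72 h (medians 0.22 and -0.16). RD20, a caleosin gene used as a drought marker, rose from 0.14, 0.49 and -1.06 at 0 h to 1.49, 3.13 and 2.44 at 48 h and 1.83, 3.48 and 2.11 at 72 h. Its change was 2.5 ± 0.58 at 48 h (adjusted p = 0.0126) and 2.62 ± 0.58 at 72 h (adjusted p = 0.00827), and the 48 h call ended without slide 3 (1.99, adjusted p = 0.100). RD26, a NAC transcription factor gene of abscisic acid response, rose by 2.41 ± 0.41 and by 1.92 ± 0.41. ERD7 fell (-1.24 ± 0.16 and -1.52 ± 0.16). COR413-PM1 fell too (-0.58 ± 0.18 and -1.11 ± 0.18), the 48 h call ending in 14 of 22 alternatives. RD29A had values of 0.22 ± 0.33 and -0.49 ± 0.33 and was not called.

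The genes of abscisic acid turnover around NCED3 gave a mixed account. Of 11 genes for synthesis of the hormone or its release from a sugar conjugate, 10 were tested: 3 were higher and 0 lower at 48 h, and 3 higher and 1 lower at 72 h (medians 0.14 and 0.17). NCED5, a relative of NCED3, was above background on no 0 h array and on every later one. It passed the filter through the later times alone, so its place in these counts is not read as a result. By the lower bound on the mean of the later arrays, in the main processing, it was at least 9.48-fold higher at 48 h and 8.20-fold at 72 h. With normexp background correction its change (log2) was only 0.93 and 0.66, called at neither time (adjusted p = 0.222 and 0.355). The bounds therefore hold for the main processing alone. NCED9, known for its role in seeds, had a value of -1.02 ± 0.45 at 48 h (adjusted p = 0.124, but called with replicate as a block, adjusted p = 0.0266) and fell at 72 h (-2.07 ± 0.45). BG1, whose glucosidase frees the hormone from its conjugate, rose by 2.08 ± 0.39 and by 1.91 ± 0.39, and ABA3, of the cofactor for the last synthesis step, by 0.82 ± 0.18 and by 1.09 ± 0.18, the 48 h call ending without slide 3 (0.64, adjusted p = 0.0793).

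Genes for the hydroxylases that break the hormone down were lower or not called. Of 4, 0 were higher and 2 lower at each time (medians -0.54 and -1.29). CYP707A3 was at 3.87, 4.02 and 4.04 at 0 h, 0.19, 0.21 and 0.52 at 48 h and -0.15, 0.20 and 0.20 at 72 h. The fall was -3.67 ± 0.15 (12.7-fold, adjusted p = 1.41e-05) and -3.89 ± 0.15 (14.9-fold, adjusted p = 8.60e-06), and the 0 h arrays stood far above all others. CYP707A2 fell at 48 h (-1.09 ± 0.33, adjusted p = 0.0373, ending in 10 of 22 alternatives) and at 72 h (-2.21 ± 0.33).

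Of 12 kinase and transcription factor genes of the dehydration response, 1 was higher at 48 h and 3 at 72 h, with 0 lower (medians 0.10 and 0.03). MYB2, an activator of RD22, rose by 1.66 ± 0.34 and by 2.0 ± 0.34, while MYC2, the other activator, had values of 0.17 ± 0.21 and 0.14 ± 0.21. ABF4, whose factor binds promoters of abscisic acid response, had a value of 0.53 ± 0.18 at 48 h (adjusted p = 0.0532, or 0.0499 with replicate as a block) and rose by 0.87 ± 0.18 at 72 h (adjusted p = 0.00560). ABF1 rose by 0.43 ± 0.15 at 72 h (adjusted p = 0.0469), a call that ended in 14 of 22 alternatives.

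Proline genes other than P5CS1 were called higher in 4 of 9 cases at each time and lower in 0 (medians 0.50 and 0.24). The list mixes genes for making, breaking down and moving proline, so its count has no single direction. The transporter gene ProT3 was at -4.51, -4.42 and -4.78 at 0 h, -2.95, -2.36 and -2.49 at 48 h and -3.17, -2.13 and -3.35 at 72 h, with no overlap between 0 h and the later times. It rose by 1.96 ± 0.31 (adjusted p = 0.00206) and by 1.68 ± 0.31 (adjusted p = 0.00342). ProT2 rose by 0.74 ± 0.24 (adjusted p = 0.0447, ending in 12 of 22 alternatives) and by 0.96 ± 0.24. OAT, an ornithine aminotransferase gene, had a value of 0.52 ± 0.19 at 48 h (adjusted p = 0.0657) and rose by 0.83 ± 0.19 at 72 h. AT5G38710, without a symbol in the reference table, rose by 1.3 ± 0.20 and by 1.18 ± 0.20.

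Of 4 other genes with a BURP domain, the domain of RD22, 0 were higher and 1 lower at each time (medians -0.62 and -1.09). PG2 fell at 48 h (-0.65 ± 0.20), in a call that ended in 12 of 22 alternatives, and at 72 h (-1.21 ± 0.20).

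**Figure D5:**
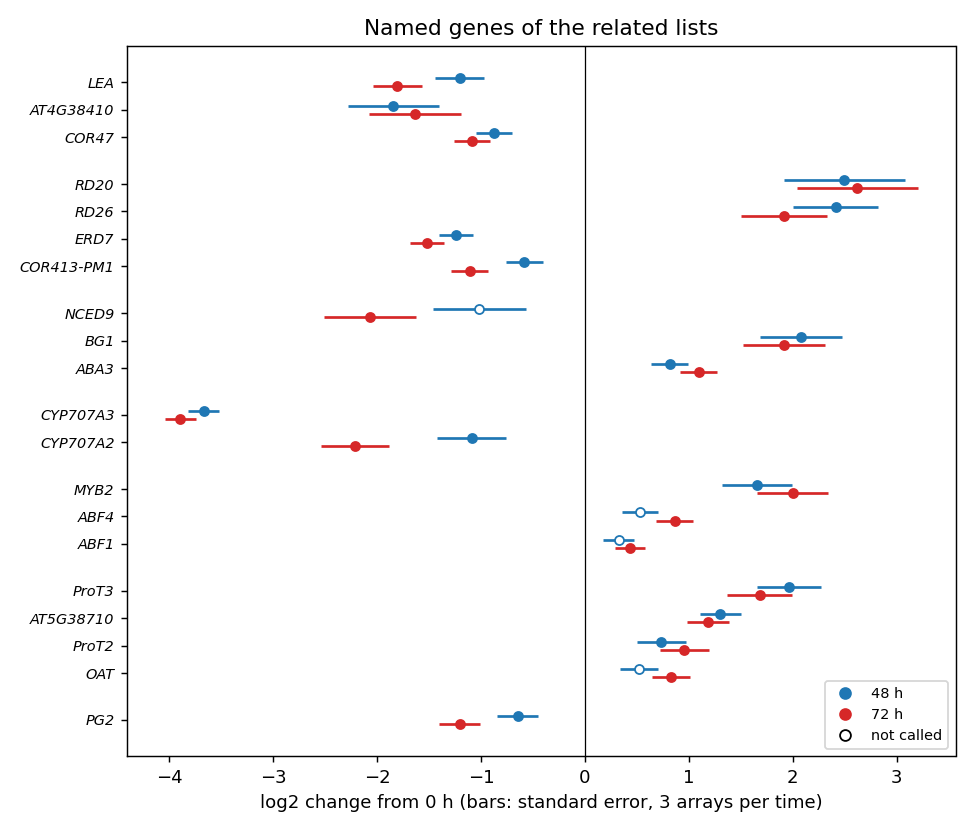
Change from 0 h (log2, with standard errors) at 48 h and 72 h for genes named from the lists of related genes, grouped by list. Other dehydrins and CYP707A3 lie below 0, and RD20, RD26, BG1, MYB2 and ProT3 above. NCED5, with no measured 0 h level, is not drawn.

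Of the shoot markers 0 of 5 were called higher and 4 lower at each time, and their summed signal was 336 to 374 times the 75th percentile at 0 h, 155 to 183 at 48 h and 148 to 175 at 72 h. PRK (-1.91 ± 0.17 and -2.02 ± 0.17), RCA (-1.76 ± 0.19 and -1.77 ± 0.19) and LHCA3 (-1.41 ± 0.15 and -1.72 ± 0.15), all of photosynthesis, fell at both times. RBCS1A had a value of -0.43 ± 0.14 at 48 h (adjusted p = 0.0553, or 0.0491 with replicate as a block) and fell at 72 h (-0.51 ± 0.14). Its 72 h call ended in 9 of 22 alternatives (values of -0.53 to -0.03, adjusted p = 0.0568 to 0.880), quantile normalization and the value table among them. ERD10, ERD14 and COR47 moved in the same direction. Of the 6 root markers 1 was higher and 1 lower at 48 h and 1 higher and 2 lower at 72 h, with sums of 3.70 to 4.77, 3.17 to 3.58 and 2.94 to 4.02. The root hair gene COBL9 fell at both times (-4.13 ± 0.46 and -5.71 ± 0.46). EXP7, also of root hairs, had a value of -3.11 ± 1.04 at 48 h (adjusted p = 0.0530) and fell at 72 h (-4.36 ± 1.04, adjusted p = 0.0115), a call that ended without slide 3 (adjusted p = 0.0522). At 72 h EXP7 was above background on 2 of 3 arrays. The nitrate transporter gene NRT2.1 rose at 48 h (4.22 ± 1.28, adjusted p = 0.0367) and had a value of -1.20 ± 1.28 at 72 h, where it was above background on 1 of 3 arrays. Its 48 h call ended in 9 of 21 alternatives (adjusted p = 0.0531 to 0.186), leaving out slide 3 among them. SHR had a value of 0.35 ± 0.16 at 48 h and rose at 72 h (0.63 ± 0.16), a call that ended in 3 of 22 alternatives. The part of these tissues in the results was not tested.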

How the data were processed

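Total RNA of 9 samples (3 per time, groups and replicate numbers from the labels) was hybridised to 1-colour Agilent arrays. The authors deposited scanner files made with Agilent Feature Extraction 9.5.3.1, per the submitters' processing notes. Per the file headers, these hold for each spot a processed signal, which is an intensity after background subtraction, the mean signal and background intensity, and other columns that flag outliers, saturation and spots well above background. The authors also deposited a value table holding a ratio on a linear scale, with its scaling per array and reference per probe not given in the sources used here. Apart from a constant per array, log2 differences in it matched those of the scanner signal within 0.05 for 100% of values of 22644 detected probes, so its scale and direction were settled, and its array medians were 0.901 to 1.11. It served as an alternative.

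Control spots and 80 outlier spots were left out, no spot was saturated, and the log2 processed signal was centred on each array's 75th percentile. Probes had to be well above background on every array of 1 or more times, and the probe with the highest mean stood for a locus. This left 21042 loci, of which 20918 were in the RefSeq table used for symbols. Limma 3.58.1 in R 4.3.3 fitted 1 mean per time to all 9 arrays (6 residual and 2.54 prior degrees of freedom), with two-sided tests. Where no array of a time was above background, the fold is a lower bound, from the lowest signal among probes well above background on each array or the probe's own if higher.

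Same-numbered arrays deviated together for 48 h against 0 h (correlations of deviations 0.255 to 0.401). Each of these pairs also shared a slide, so pairing of samples and the slide cannot be told apart, and the main fit used neither. The correlations were lower for 72 h against 0 h (-0.0102 to 0.208) and 72 h against 48 h (-0.0392 to 0.112). Within a time, arrays correlated across loci at 0.963 to 0.991.

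The 8 genes and the 10 lists of 93 related genes were chosen with earlier results of these data known. From each list the text names, by a rule, up to 4 called genes with the largest change at 72 h, and for members called by the F test the 2 nearest profiles among loci with a symbol. XERO1, HIRD11, RD29A, MYC2, OLEO4, EM6 and EM1, outside the rule, were named after their values were seen. Tested on simulated data with 21042 genes, the fit recovered 44% of changes of size 1 (log2) for 48 h against 0 h and 45% for 72 h, and 90% and 92% of changes of size 2, with 8 and 9 false calls. The simulation changed far fewer genes than were called here and drew independent noise without slides. Its shares and false calls check the fit and are not the power or error in these data. The number of arrays limits the precision. Alternatives were median, quantile and normexp (offset 50) processing, the value table, other probe filters, mean over probes, replicate or slide blocks, fits of the 2 times compared and arrays or slides left out.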

Additional observations from a re-analysis of the deposited data

How the results depend on the processing

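Over 22 alternatives, ERD10 stayed called lower at both times (-1.38 to -1.07 at 48 h, -1.71 to -1.39 at 72 h). Of the 8 genes, 2 were called at 48 h. This became 1 with only the 2 times compared, 4 with a replicate block and only the 2 times compared (ERD10, RAB18, LTI30 and RD29B), 3 with quantile normalization, the value table, the slide block or without slides 3 and 4, and 1 to 3 with single arrays left out. At 72 h the count of 2 became 1 with median scaling, quantile normalization, normexp, the value table, the slide block, without slides 3 and 4 and with the replicate block on the 2 times, and 1 to 2 with single arrays left out. The replicate block over all 9 arrays left both counts at 2. Over all loci, the 48 h count of 6298 became 5118 with only the 2 times compared and 6114 with the replicate block on the 2 times. It was 6432 with quantile normalization, 6462 with the value table and 6690 with the slide block. The 72 h count of 7628 became 7332 with median scaling, 7783 with quantile normalization and 7042 with normexp. It was 8755 with the value table, 5978 with the slide block and 6124 with the replicate block on the 2 times. Without slides 3 and 4 the counts over all loci fell to 3024 and 4418. With single arrays left out they were 4654 to 6972 and 5640 to 8437. For 72 h against 48 h the count of 0 became 2 with median scaling, 3 with quantile normalization, 1 with normexp, 1 with the value table, 6 with the replicate block, 3 with only the 2 times compared, 1 without slide 3, and 0 to 7 with single arrays left out. Higher loci made up 47.1% of calls at 48 h and 45.9% at 72 h, whereas the shares were 38.5% at 48 h with median scaling, 39.0% and 36.9% with normexp and 59.6% and 65.2% with the value table, which moved the median locus by 0.15 and 0.23.

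Signs reversed for ERD14 at 48 h with quantile normalization (0.063, in place of -0.24), for LTI30 at 72 h with the slide block (-0.29), without slides 3 and 4 (-0.31), without slide 3 (-0.29), without 72 h replicate 1 (-0.11) and without 0 h replicate 3 (-0.29), and for NCED3 at 72 h with the value table (0.14) and without 72 h replicate 1 (0.24). RD29B at 48 h reversed without 48 h replicate 1 (-0.25), 48 h replicate 2 (-0.32) or 0 h replicate 3 (-1.02). Leaving out 0 h replicate 3 left 1 slide 3 array unmatched. In the other cases both slide 3 arrays stayed, and a 0 h array of slide 1 or slide 2 was unmatched. The seed gene SESA1 reversed at 72 h with normexp (-0.56). Without slides 3 and 4, which leaves 2 arrays per time, calls of RD26 (adjusted p = 0.0666 and 0.0771), of LEA (0.0725) and MYB2 (0.0502) at 48 h, and of RD20 (0.0855), NCED9 (0.106) and OAT (0.0673) at 72 h also ended. Apart from fewer arrays, the causes were not tested. Alternatives without slide 3, and with a replicate block on the 2 times, were chosen after seeing the data. With single arrays left out, LTI30 at 72 h ran from -0.29 to 0.30, NCED3 at 72 h from -0.51 to 0.24 and RD29B at 48 h from -1.02 to 2.03.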
